A study of Mus musculus with 6 samples.

Results

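Cholesterol and fatty acid synthesis genes were compared between the RNA of whole hippocampus and the RNA recovered with tagged ribosomes of Cx3cr1-expressing cells. The 31 genes were chosen by symbol, from knowledge of the pathways. They comprised 3 regulators, 7 genes of the mevalonate route, 11 genes from squalene to cholesterol, 2 genes of sterol handling and 8 genes of fatty acid synthesis, elongation and desaturation. All 31 were among the 15388 genes of the table, and all 31 were among the 15344 genes tested. All mice were Cx3cr1-Cre/Ert2+; NuTRAP+ and had been given tamoxifen, which lets the Cre recombinase enter the nucleus. The methods of the study give mice of both sexes at about 3 months of age, with 1 copy of each allele. The sex of each animal was not in the labels. Cre was driven by the promoter of Cx3cr1, which is active in microglia and in other brain macrophages, and recombination placed a GFP tag on the ribosomes of those cells. There was no group without Cre. Each of 3 animals, numbered 201, 207 and 208, gave an Input library from cleared homogenate and a Positive library from ribosomes bound by an antibody to GFP.

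Cholesterol is built from acetyl-CoA by way of mevalonate, isoprenoid units, squalene and a chain of sterol intermediates. Fatty acids are built from malonyl-CoA and are then lengthened by elongases and given double bonds by desaturases. SREBP transcription factors drive genes of both routes when membrane sterol is low, and INSIG proteins hold them in the endoplasmic reticulum when sterol is high. In the brain, which makes its own cholesterol, oligodendrocytes use much of it for myelin, and astrocytes pass it to neurons on apolipoprotein E.

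The libraries held 14879734 to 16488460 reads in Input and 15790210 to 17757918 in Positive. Values below are scaled reads, which are reads divided by the size factor of the library, and fold changes are Positive over Input. Reads had no molecular identifiers. Nothing in the labels separates the animals by batch. The 7 defining microglial markers, among them Cx3cr1, P2ry12 and Tmem119, were all higher in Positive, with a median log2 fold change of 4.63. Their summed level was 4090 to 4497 scaled reads in Input and 80562 to 118464 in Positive, and no library went against its fraction label. The 5 defining markers of border macrophages and the 6 of endothelial cells were also all higher, with medians of 4.19 and 1.97. Their summed levels were 156 to 214 and 1283 to 1673 scaled reads in Input, and 2354 to 5066 and 3783 to 7429 in Positive.

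A group of synthesis genes, led by Scd1, Insig1 and Scd2, was modestly lower in Positive, and a single gene, Ebp, was higher. Of the 31 genes, 13 were lower and 1 was higher in Positive (edgeR quasi-likelihood test, adjusted p under 0.05, n = 3 per fraction), and 17 did not pass the test. Of all genes tested, 46.0% passed, 22.0% lower and 24.0% higher, and 54.0% did not pass. The median log2 fold change of the 31 genes was -0.20, or 87.2% of the Input level, against -0.01 over all genes tested. In single animals the median over the 31 genes was -0.11, -0.18 and -0.21 in 201, 207 and 208. The changes were small. Values ranged from -0.83 for Scd1 to 0.66 for Ebp, and 21 of the 31 genes changed by less than 1.25-fold in either direction. Every Positive library was below every Input library in 16 genes, against 27.6% of all genes, and above in 2 genes, Ebp and Fasn, against 28.9%. In bulk RNA, fewer cells of a type and less of an RNA per cell cannot be told apart.

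**Figure D1:**
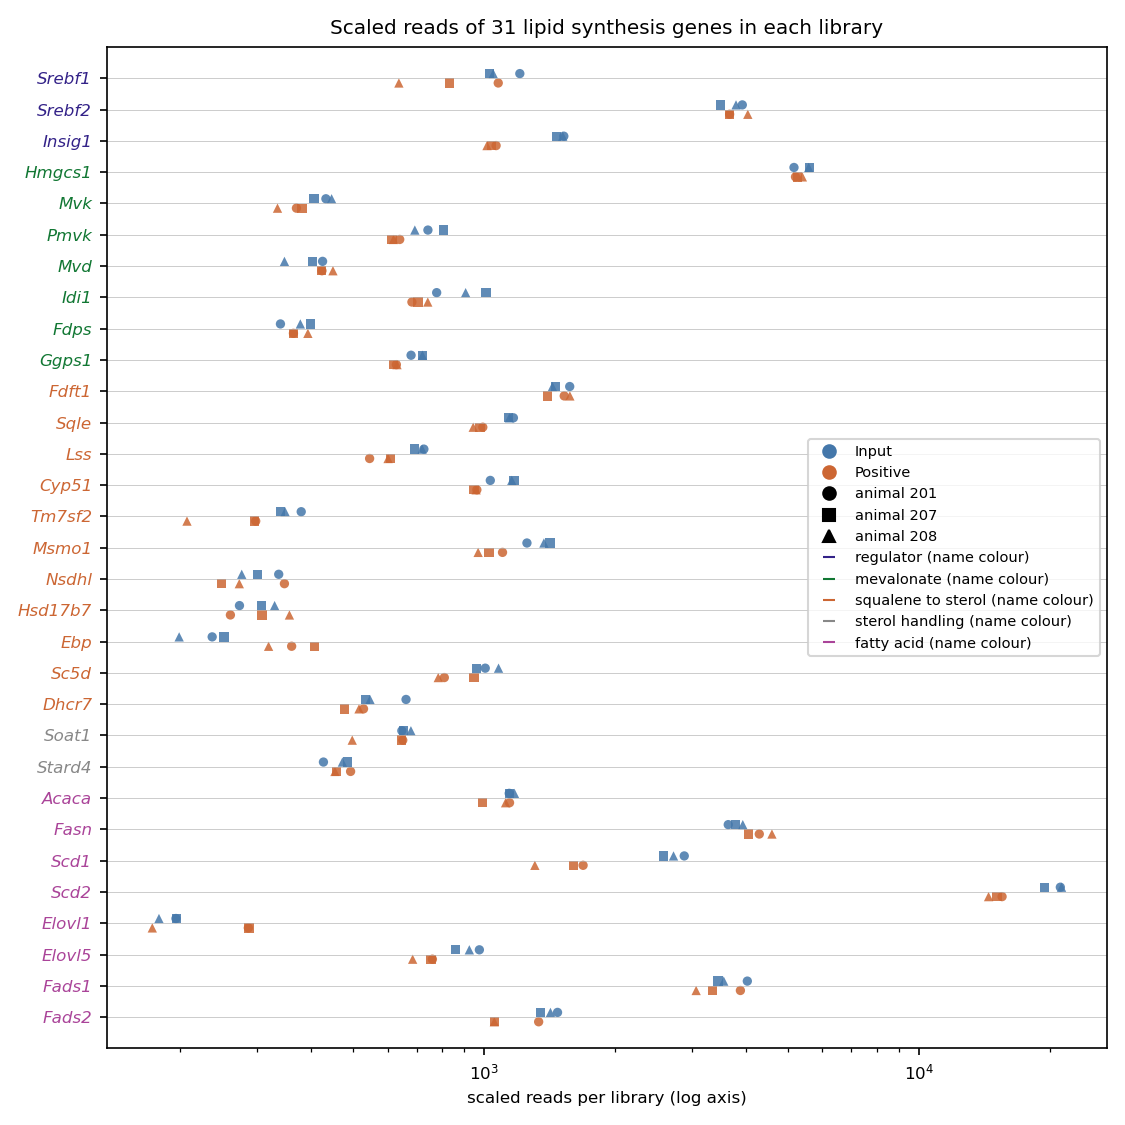
Scaled reads per library on a log axis for the 31 genes, with Input in blue, Positive in orange and a marker shape for each animal; the colour of a gene name gives its role. Scd2 lies far to the right of the other genes, and its 3 Positive libraries, like those of Scd1, Insig1 and Msmo1, lie to the left of the 3 Input libraries.

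Insig1, Msmo1, Scd1, Scd2, Elovl5 and Ebp passed the test in all 13 alternative analyses, and the other 8 called genes lost the call in at least 1 of them. The number of lower genes was 8 without the Input library of animal 201, 7 without that of 207 and 6 without that of 208. Pmvk, Sc5d, Lss, Tm7sf2 and Fads2 did not pass without the Input library of 201. Without that of 207, Pmvk, Cyp51, Sc5d, Idi1, Sqle and Tm7sf2 did not pass, and without that of 208 Cyp51, Sc5d, Lss, Idi1, Sqle, Tm7sf2 and Fads2. Pmvk, Cyp51, Sc5d and Lss did not pass without the Positive library of 201. Pmvk, Cyp51 and Fads2 did not pass without that of 207, and Sc5d, Tm7sf2 and Fads2 without that of 208. No called gene changed direction. With scaling by total reads, 58.4% of all calls were lower, against 47.8% here, and 16 synthesis genes were lower.

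Many markers of oligodendrocytes and astrocytes were also lower. The 7 defining oligodendrocyte markers, among them Mbp, Mag and Mog, were all lower, with a median log2 fold change of -2.44. Their summed level was 48877 to 55620 scaled reads in Input and 11108 to 14600 in Positive. In a longer oligodendrocyte list from cell sorting, 137 of 186 genes were lower (73.7%, against 22.0% of all genes tested). In that list 10 were higher (5.38%, against 24.0%), and the median was -0.78. Of the 6 defining astrocyte markers, 2 were lower, Gfap and Gja1 (33.3%, against 22.0% of all genes tested), 0 were higher and 4 did not pass. Their summed level was 29642 to 32064 in Input and 19887 to 30727 in Positive. In the astrocyte sorting list 85 of 138 genes were lower (61.6%) and 3 higher (2.17%). Its median was -0.26, -0.36 and -0.72 in animals 201, 207 and 208. The 6 neuronal markers had a median of 0.16, with 2 higher (33.3%, against 24.0% of all genes tested). Their summed level was 111521 to 128346 in Input and 128784 to 157153 in Positive. In the neuronal sorting list 22 of 99 genes were higher (22.2%) and 18 lower (18.2%), near the shares of all genes tested. Its median was -0.0087. No defining marker was at 0 in any library. Elovl1 was the only synthesis gene in any of the 4 sorting lists, that of oligodendrocytes. The part of these cell types in the level of the synthesis genes was not tested. The summed level of the neuronal markers was not lower in Positive, so Positive may hold RNA of untagged cells. Without a group lacking Cre, the share of such RNA in a Positive level could not be measured.

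**Figure D2:**
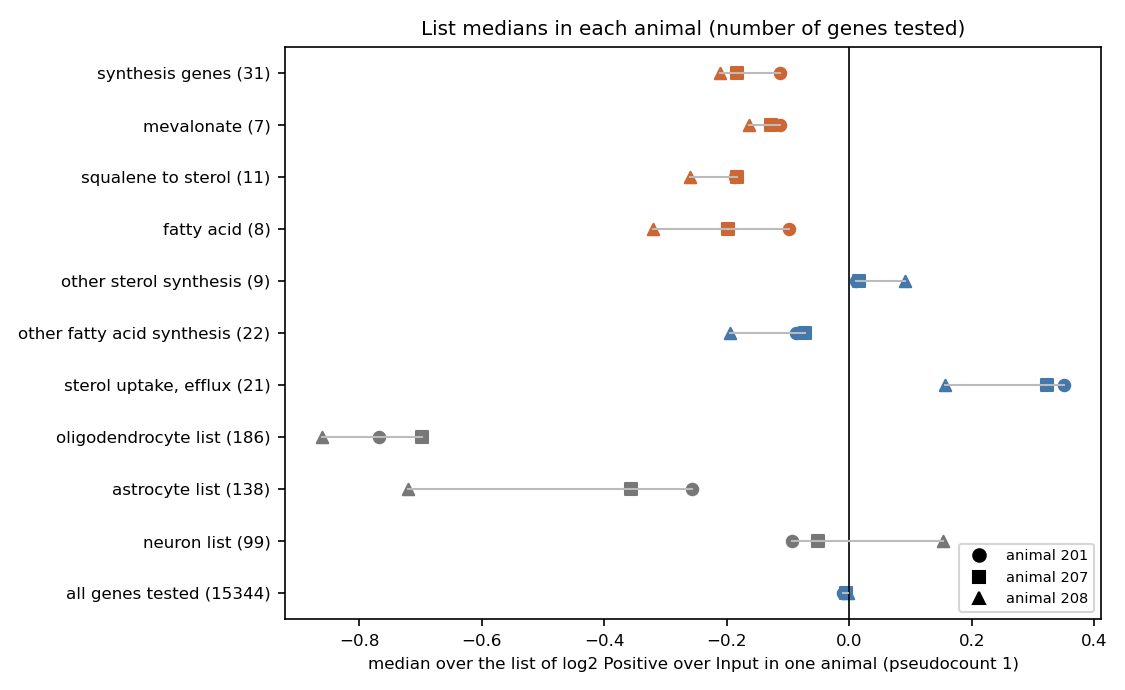
Median log2 ratio of Positive over Input within each animal, for the synthesis genes, their larger role groups, related pathway lists and cell-sorting lists, with a marker shape per animal. The synthesis genes lie at -0.11 to -0.21, between the oligodendrocyte and astrocyte lists on the left and all genes tested, which lie at about 0.

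Among the regulators, Insig1, the sterol sensor that retains SREBP precursors, was lower in Positive. Insig1 (chromosome 5, 28071363 to 28078662, plus strand, mm10) had 1525, 1468 and 1516 scaled reads in the Input libraries of 201, 207 and 208. It had 1065, 1039.7 and 1015 in the matching Positive libraries. The fractions did not overlap, and the animals were close to each other. Its log2 fold change was -0.53 ± 0.07 (SE, edgeR adjusted p = 8.1e-05). Srebf2, the SREBP that mainly drives cholesterol genes, had 3739 ± 222 scaled reads in Input against 3795 ± 214 in Positive (SD, n = 3), and did not pass the test (log2 fold change 0.02 ± 0.08, edgeR adjusted p = 0.85).

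Srebf1, whose products mainly drive fatty acid genes, differed between animals. It had 1208, 1027 and 1049 scaled reads in Input against 1077, 832 and 636 in Positive, and the fractions overlapped through animal 201. A log2 fold change of -0.37 ± 0.15 did not pass (edgeR adjusted p = 0.060). The paired fit, with the animal as a block, gave -0.39 with an edgeR adjusted p of 0.0048. Srebf1 was the only one of the 31 genes whose call the pairing changed. It also passed with DESeq2 and with scaling by total reads. Without the Positive library of 201 the value was -0.57, with an edgeR adjusted p of 0.0025. In single animals the log2 ratio was -0.16, -0.30 and -0.72. The medians of the astrocyte sorting list had the same order of animals, as did those of all 31 synthesis genes (-0.11, -0.18 and -0.21). The part of astrocyte RNA in the value of Srebf1 was not tested.

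Promoter windows from RefSeq (build GRCm38.p6, 250 bases before to 50 after a start) were at hand for 24 of the 31 genes. The set of windows used here had no entry for 7, including Scd1, Scd2 and Sqle. An NF-Y box, CCAAT on either strand, is a motif that often stands beside SREBP sites. It was found in 22 of the 24 genes (91.7%), against 42.8% of the 11018 genes tested with a promoter entry. The sterol regulatory element, spelled here as TCACNCCAC on either strand, was found in 1 of the 24 genes, Hmgcs1, against 1.38%. Only exact matches to this spelling were counted, so elements spelled otherwise would be missed. An E-box, CACGTG, which reads the same on both strands, was found in 5 of the 24 (20.8%), against 11.4%. A match is a description of letters and not a binding site. The windows of Insig1 and Elovl5, lower in Positive, Hmgcs1, which did not pass the test, and Ebp, higher in Positive, follow as examples. Scd1, which had the largest decrease, is among the genes without a window. Bases are before the gene start, 5′ to 3′ on the strand of the gene, and capitals mark NF-Y boxes (ATTGG is CCAAT read on the other strand) and, in Hmgcs1, the sterol regulatory element. The positions in GRCm38.p6 are chr5:28071162-28071362 (plus strand), chr9:77917115-77917363 (plus), chr13:119690101-119690350 (plus) and chrX:8193513-8193762 (minus).
Insig1: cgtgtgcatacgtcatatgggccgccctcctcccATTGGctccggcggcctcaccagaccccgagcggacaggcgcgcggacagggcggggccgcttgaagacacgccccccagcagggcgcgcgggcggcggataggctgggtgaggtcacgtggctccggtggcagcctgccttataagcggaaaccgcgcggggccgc
Elovl5: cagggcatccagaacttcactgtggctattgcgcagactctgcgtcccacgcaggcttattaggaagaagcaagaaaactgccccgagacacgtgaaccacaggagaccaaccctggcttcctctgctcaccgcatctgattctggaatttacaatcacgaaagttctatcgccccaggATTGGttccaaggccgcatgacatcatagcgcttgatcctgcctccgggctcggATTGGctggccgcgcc
Hmgcs1: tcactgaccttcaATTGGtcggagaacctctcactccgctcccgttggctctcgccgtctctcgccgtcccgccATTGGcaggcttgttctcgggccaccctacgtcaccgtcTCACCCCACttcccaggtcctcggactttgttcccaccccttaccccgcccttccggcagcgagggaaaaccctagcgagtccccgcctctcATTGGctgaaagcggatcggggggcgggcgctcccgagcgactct
Ebp: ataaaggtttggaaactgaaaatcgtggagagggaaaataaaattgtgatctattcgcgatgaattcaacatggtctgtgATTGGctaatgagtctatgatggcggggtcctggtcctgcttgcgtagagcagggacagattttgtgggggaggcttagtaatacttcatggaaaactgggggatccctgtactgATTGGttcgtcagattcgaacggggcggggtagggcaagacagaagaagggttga

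All 4 windows held NF-Y boxes. The Insig1 window printed holds 1 box, Elovl5 holds 2, Hmgcs1 holds 3 and Ebp holds 2. In Hmgcs1 the sterol regulatory element, TCACCCCAC, begins 137 bases before the start and overlaps no NF-Y box.

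Of the 7 genes of the mevalonate route, 2 were lower (28.6%, against 22.0% of all genes tested) and 0 higher, with a median log2 fold change of -0.18. Hmgcs1, which condenses acetyl-CoA units into HMG-CoA, had 5162, 5595 and 5581 scaled reads in Input against 5204, 5253 and 5397 in Positive, so the fractions overlapped (log2 fold change -0.04 ± 0.08, edgeR adjusted p = 0.67). The genes that passed were Pmvk and Idi1, both from the middle of the route. Pmvk, phosphomevalonate kinase, had 742, 806 and 692 scaled reads in Input against 639, 613 and 618 in Positive. The log2 fold change was -0.26 ± 0.09 (edgeR adjusted p = 0.033), and the gene passed in 2 of the 6 fits that left out 1 library, with an adjusted p of up to 0.15. Idi1, which isomerizes the isoprenoid unit, had 777, 1009 and 906 in Input and 682, 704 and 742 in Positive, without overlap. Its log2 fold change was -0.34 ± 0.10 (edgeR adjusted p = 0.016), and it passed in 4 of those 6 fits, with an adjusted p of up to 0.098.

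Mevalonate kinase (Mvk) and the geranylgeranyl diphosphate synthase Ggps1 had log2 fold changes of -0.24 ± 0.11 and -0.18 ± 0.09. Neither passed the test (edgeR adjusted p = 0.088 and 0.11), while in both every Positive library was below every Input library. Both passed under scaling by total reads, with edgeR adjusted p of 0.029 and 0.028. The decarboxylase Mvd had 392 ± 40.1 scaled reads in Input against 431 ± 14.9 in Positive (SD, n = 3). Fdps, which makes farnesyl diphosphate, the branch point to sterols and prenylated proteins, had 372 ± 29.4 and 374 ± 16.7 (SD, n = 3). The fractions of Mvd and Fdps overlapped. Idi1 and Fdps share 18.1% and 27.1% of their transcript runs of 42 bases with other annotated genes, and their reads may be split with those copies.

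Of the 11 genes from squalene to cholesterol, 6 were lower (54.5%, against 22.0% of all genes tested) and 1 was higher (9.09%, against 24.0%). The median log2 fold change was -0.23. Fdft1, which makes squalene and so commits the route to sterols, had 1489.6 ± 73.3 scaled reads in Input against 1501 ± 90.6 in Positive (SD, n = 3) and did not pass (edgeR adjusted p = 0.92). Of its runs, 11.1% occur in other genes. The next 3 enzymes in order, Sqle, Lss and Cyp51, all fell. Sqle, the squalene epoxidase and a rate-limiting step, had 1167, 1137 and 1143 in Input and 992, 977 and 943 in Positive. Its fractions were tight and did not overlap, and its log2 fold change was -0.24 ± 0.08 (edgeR adjusted p = 0.020, up to 0.065 when 1 library was left out). Lss, which closes the sterol rings, had 726, 692 and 719.6 in Input and 545, 609.6 and 601 in Positive, with a log2 fold change of -0.28 ± 0.09 (edgeR adjusted p = 0.021, up to 0.079 when 1 library was left out). Cyp51, the lanosterol demethylase, had 1120.3 ± 76.1 in Input and 956 ± 7.12 in Positive (SD, n = 3). Its log2 fold change of -0.23 ± 0.08 passed with an edgeR adjusted p of 0.036, but did not pass with DESeq2, and reached 0.14 when 1 library was left out.

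Msmo1 (chromosome 8, 64718139 to 64733792, minus strand), which removes methyl groups of the sterol nucleus, had 1254, 1416 and 1372 scaled reads in Input. It had 1102, 1025 and 968 in Positive, each below the lowest Input library. The log2 fold change was -0.39 ± 0.08 (edgeR adjusted p = 0.0026), and it stayed at or below -0.34 in each of the 13 alternatives. The sterol reductase Tm7sf2 had 379, 340.2 and 348 in Input and 298, 296 and 207 in Positive. Animal 208 had the lowest value, and the log2 fold change was -0.41 ± 0.15 (edgeR adjusted p = 0.036, up to 0.11 when 1 library was left out). Tm7sf2 shares 10.4% of its runs with other genes, nearly all with Vps51. The desaturase Sc5d had 1005, 959.9 and 1079 in Input and 809, 948 and 784 in Positive, with animal 207 nearly even. Its log2 fold change of -0.26 ± 0.09 (edgeR adjusted p = 0.039) passed in only 1 of the 6 fits that left out 1 library, with an adjusted p of up to 0.16.

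Ebp (chromosome X, 8185329 to 8193512, minus strand), the sterol isomerase between the demethylation steps and the last reductions, went the other way. It had 237, 252 and 199 scaled reads in Input against 360.4, 406 and 319 in Positive, and every Positive library was above every Input library. The log2 fold change was 0.66 ± 0.14 (edgeR adjusted p = 0.0020), or 1.58-fold, with 0.61, 0.69 and 0.68 in the 3 animals. It was between 0.57 and 0.74 in the 13 alternatives and passed in each. None of its 42-base runs was found in another gene. No other gene of the route passed the test upward. Nsdhl and Hsd17b7, which act together on the sterol methyl groups, had log2 fold changes of -0.08 ± 0.15 and 0.02 ± 0.14, and neither passed (edgeR adjusted p = 0.70 and 0.91). Dhcr7, which completes cholesterol, had 580.1 ± 70.2 in Input and 506 ± 26.8 in Positive (SD, n = 3), without overlap but also without passing (log2 fold change -0.20 ± 0.11, edgeR adjusted p = 0.16).

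**Figure D3:**
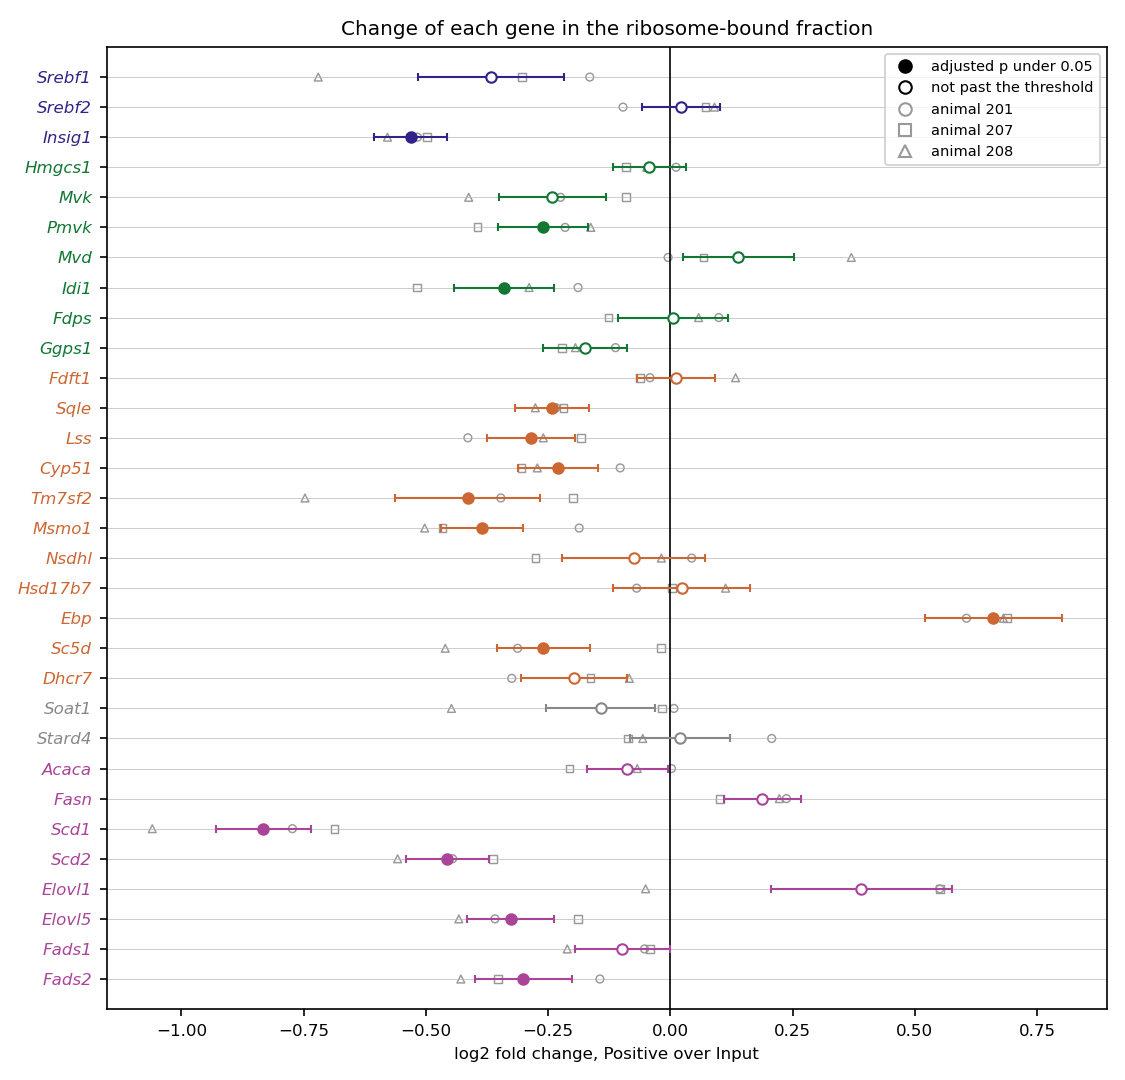
Log2 fold change of each of the 31 genes from the edgeR fit, with its standard error as a bar, filled circles for adjusted p under 0.05 and grey shapes for the ratio within each animal. Scd1, Insig1 and Scd2 are farthest to the left at -0.83, -0.53 and -0.46, and Ebp is farthest to the right at 0.66.

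Neither gene of sterol handling passed the test. Soat1, which stores cholesterol as esters, had 646, 653 and 678 scaled reads in Input against 649, 645 and 497 in Positive. Animals 201 and 207 were close to even, and animal 208 was lower, with a log2 ratio of -0.45 (all animals -0.14 ± 0.11, edgeR adjusted p = 0.32). Stard4, a soluble carrier of sterol between membranes, had 461 ± 30.7 in Input and 468 ± 21.7 in Positive (SD, n = 3). The log2 fold change was 0.02 ± 0.10 (edgeR adjusted p = 0.89).

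In fatty acid synthesis, the desaturases Scd1, Scd2 and Fads2 and the elongase Elovl5 were lower, while Acaca and Fasn, which build the chain, did not pass. Of the 8 genes, 4 were lower (50.0%, against 22.0% of all genes tested) and 0 higher (against 24.0%). Their median log2 fold change was -0.20. Acaca, the acetyl-CoA carboxylase that starts the route, had 1153 ± 18.2 scaled reads in Input against 1085 ± 82.4 in Positive (SD, n = 3), and did not pass (log2 fold change -0.09 ± 0.08, edgeR adjusted p = 0.41). Acaca shares 31.6% of its runs with other annotated genes, mostly Gm5182. Fasn, the fatty acid synthase, had 3644, 3782 and 3936 in Input and 4295, 4057 and 4593 in Positive. All 3 Positive libraries lay above Input, yet the log2 fold change of 0.19 ± 0.08 did not pass (edgeR adjusted p = 0.065). Without the Positive library of 207 it was 0.23 with an edgeR adjusted p of 0.048.

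Scd1 and Scd2, the stearoyl-CoA desaturases that make monounsaturated fatty acids, were both lower, Scd1 with the largest decrease of the 31 genes. Scd1 (chromosome 19, 44394451 to 44407709, minus strand) had 2886, 2583 and 2727 scaled reads in Input against 1689, 1604 and 1308 in Positive. The log2 fold change was -0.83 ± 0.10 (edgeR adjusted p = 1.7e-05), and the ratio within animals was -0.77, -0.69 and -1.06. Scd2 (chromosome 19, 44293676 to 44306864, plus strand) had 21173, 19457 and 21309 in Input and 15549.5, 15126 and 14476 in Positive, again without overlap. Its log2 fold change was -0.46 ± 0.09 (edgeR adjusted p = 0.00083). Scd1 and Scd2 share 5.85% and 5.04% of their runs with other genes, mainly with Scd3 and with each other. Scd2 alone made up 33.6 to 35.3% of the reads of the 31 genes in Input and 29.4 to 30.3% in Positive. The 31 genes together took 0.373 to 0.388% of the table's reads in Input and 0.298 to 0.319% in Positive. Without Scd1 and Scd2, the median over the other 29 genes was -0.18, with 11 lower and 1 higher.

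The elongases Elovl1, which acts on saturated and monounsaturated very long chains, and Elovl5, which acts on polyunsaturated chains, had opposite signs. Elovl5 had 975, 860.2 and 924 scaled reads in Input against 759.8, 754 and 684 in Positive, and its log2 fold change was -0.33 ± 0.09 (edgeR adjusted p = 0.0094). Elovl1, which had the fewest scaled reads of the 31 genes on average over the libraries, with 166 raw reads in its lowest library, had 195, 196 and 178 in Input and 287, 288 and 172 in Positive. It was above Input in animals 201 and 207 and level with it in 208, and it did not pass (log2 fold change 0.39 ± 0.18, edgeR adjusted p = 0.10). Without the Positive library of 208 the value was 0.60 with an edgeR adjusted p of 0.0024. Fads1 and Fads2, the desaturases of polyunsaturated chains, both lie on chromosome 19. Fads2 had 1475, 1348 and 1420.3 in Input and 1334, 1055 and 1055 in Positive, with a log2 fold change of -0.30 ± 0.10 (edgeR adjusted p = 0.025, up to 0.097 when 1 library was left out). Fads1 had 3681 ± 308 in Input and 3438 ± 413 in Positive (SD, n = 3) and did not pass (edgeR adjusted p = 0.43).

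Ratios of related genes within a library do not depend on the scaling between libraries. For 4 pairs the log2 ratio of reads was compared by a two-sided exact permutation test, in which 3 against 3 libraries cannot give a p below 0.1. Scd1 against Scd2 was -2.87, -2.91 and -2.97 in Input and -3.20, -3.24 and -3.47 in Positive. Scd2 had 7.56 times the reads of Scd1 in Input and 9.86 times in Positive, and the fractions did not overlap (difference -0.38 ± 0.10, SD over 3 animals, exact p = 0.1). Elovl1 against Elovl5 moved from a mean of -2.27 to -1.59 (difference 0.68 ± 0.27, SD, exact p = 0.1), and Fads1 against Fads2 from 1.38 to 1.58 (0.21 ± 0.11, SD, exact p = 0.1), both without overlap. Adjusted over the 4 pairs by Benjamini-Hochberg, the exact p of these 3 was 0.13. Srebf1 against Srebf2 moved from -1.77 to -2.19 with overlap (-0.42 ± 0.37, SD, exact p = 0.2).

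**Figure D4:**
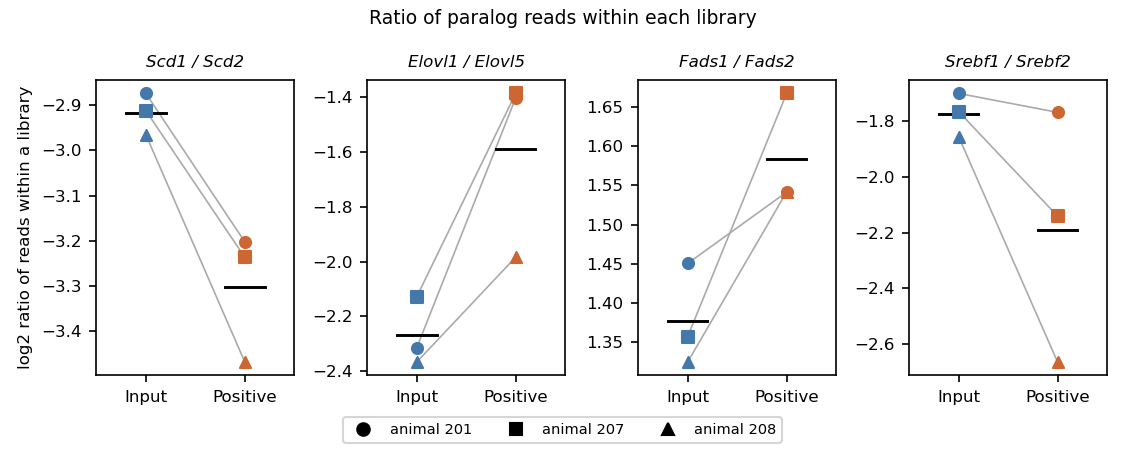
Log2 ratio of the reads of paired genes within each library, in Input (blue) and Positive (orange), with lines joining the libraries of an animal, bars at the means and a separate vertical scale in each panel. The fractions are separate for Scd1/Scd2, Elovl1/Elovl5 and Fads1/Fads2, and overlap for Srebf1/Srebf2.

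Levels between genes were compared per length, as reads per kilobase of merged exons, scaled to the reads of the table (RPKM). Scd2 had the highest level, with 243 ± 11.2 in Input and 168 ± 7.15 in Positive (SD, n = 3). Hmgcs1 followed with 76.2 and 70.1, and Fads1 with 49.1 and 43.5. Scd1, at 35.9 ± 1.88 in Input, was not separated from Srebf2 at 33.4 ± 1.86 by more than their spread, but in Positive Scd1 was at 19.1 ± 2.59 and Srebf2 at 32.2 ± 1.71 (SD, n = 3). The lowest level in Input was that of Hsd17b7, at 3.82 ± 0.35, next to Lss at 4.24 ± 0.092, Soat1 at 4.32 ± 0.10 and Acaca at 4.34 ± 0.060 (SD, n = 3), and these 4 lay close together.

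Further genes of the same pathways were counted in the same fit. Of 10 other genes of sterol synthesis and its control, 9 were in the table. Of these, 1 was lower (11.1%, against 22.0% of all genes tested) and 0 higher (against 24.0%). Their median log2 fold change was 0.08. The lower gene was Insig2, the relative of Insig1, with 817 ± 70.7 scaled reads in Input against 657 ± 73.4 in Positive (SD, n = 3; log2 fold change -0.31 ± 0.10, edgeR adjusted p = 0.027). The count of lower genes was 0 without the Input libraries of 207 or 208 or the Positive libraries of 201 or 207, and 3 without the Positive library of 208. Scap, the escort of SREBP, and Mbtps1, which cuts SREBP in the Golgi, had 0.08 ± 0.07 and 0.12 ± 0.07, and neither passed (edgeR adjusted p = 0.41 and 0.19).

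Of 24 other genes of fatty acid synthesis, 22 were in the table. Of these, 3 were higher (13.6%, against 24.0% of all genes tested) and 5 lower (22.7%, against 22.0%). The lower share was close to that of all genes. Their median log2 fold change was -0.14. Acly, which supplies acetyl-CoA to both routes, had 2369, 2162 and 2292 scaled reads in Input against 3830.0, 3958 and 3501 in Positive. It was above Input in all 3 animals, with a log2 fold change of 0.73 ± 0.08 (edgeR adjusted p = 8.6e-06), ahead of Acaca and Fasn in the route. The other higher genes were low in Input. Mlxipl, a glucose-responsive activator of lipogenic genes that is in the microglial sorting list, had 44.5 ± 11 and 239 ± 46.7 (SD, n = 3; log2 fold change 2.43 ± 0.22). Hacd4, a dehydratase of chain elongation, had 40.4 ± 4.26 and 202 ± 52.8 (SD, n = 3; log2 fold change 2.32 ± 0.22). The lower genes were Elovl7, Hacd1, Me1, Fads6 and Elovl6, with log2 fold changes of -1.06, -0.87, -0.55, -0.41 and -0.38. Elovl7 and Elovl6, both elongases, are in the oligodendrocyte sorting list. Tecr, Hacd3 and Mid1ip1 had 0.07, -0.15 and -0.02 and did not pass.

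Of the 24 listed genes of sterol uptake, storage and export, 21 were in the table. Of these, 11 were higher (52.4%, against 24.0% of all genes tested) and 4 lower (19.0%, against 22.0%). Their median log2 fold change was 0.25, against -0.20 for the synthesis genes. Npc2, which carries cholesterol out of lysosomes, had 1147, 1106 and 1155 scaled reads in Input against 3584, 4424 and 2953 in Positive (log2 fold change 1.69 ± 0.12, edgeR adjusted p = 1.8e-07). Lipa, the lysosomal lipase that frees cholesterol from esters, had 275 ± 29.3 and 588 ± 67.2 (SD, n = 3; log2 fold change 1.10 ± 0.13). Mylip, which targets the LDL receptor for degradation and is in the microglial sorting list, had 288 ± 14.5 and 1215 ± 179 (SD, n = 3; log2 fold change 2.08 ± 0.12). The exporters Abca1 and Abcg1 had 1.02 ± 0.13 and 0.70 ± 0.08, and the lysosomal transporter Npc1 0.51 ± 0.13; these 3 were picked with their values in view. Apoe, the main sterol carrier of brain and a gene of the astrocyte list, had 34827 ± 1122 in Input and 41207 ± 8024 in Positive (SD, n = 3) and did not pass (log2 fold change 0.24 ± 0.13, edgeR adjusted p = 0.14). Without the Positive library of 208, Apoe had 0.39 with an edgeR adjusted p of 0.00055.

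Lower in Positive were Lcat, Vldlr, Gramd1b and Cyp46a1, with log2 fold changes of -0.66, -0.30, -0.27 and -0.25. Cyp46a1, which turns cholesterol into the form that leaves the brain, is known as a neuronal enzyme. Lrp1, a receptor for apolipoprotein E, was higher (0.25 ± 0.09, edgeR adjusted p = 0.038, up to 0.13 when 1 library was left out). Of the 6 fits that left out 1 library, Lrp1 passed in the 1 without the Positive library of 208, and it did not pass under total count scaling (0.18, edgeR adjusted p = 0.13). The number of lower genes was 1 without the Input library of 208 or the Positive library of 207, and 2 without the Positive library of 201. Leaving out 1 library gave adjusted p of up to 0.16 for Cyp46a1, 0.081 for Vldlr and 0.065 for Gramd1b.

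**Figure D5:**
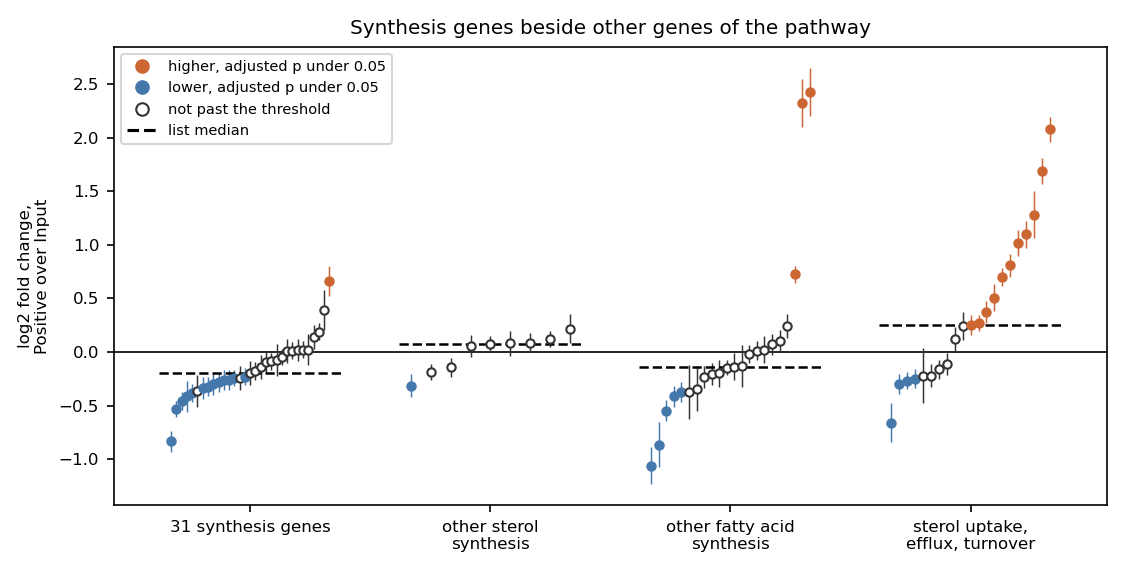
Log2 fold change of each gene tested in the synthesis list and in 3 related lists, sorted within a list, with standard errors as bars, colours for genes past the test and dashed lines at the medians. The synthesis genes lie near or below 0 except for Ebp and a few open circles, and 11 of 21 genes of uptake, efflux and turnover are higher.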

How the data were processed

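RNA was sequenced from Input and Positive fractions of 3 mice as directional, poly(A)-selected read pairs. The authors aligned reads to mm10 in Strand NGS using strand, and deposited estimated counts per gene that need not be whole, for genes that reached 20 reads in all samples of 1 fraction or more. The deposited normalized columns are log2 values, scaled by DESeq and centred on the Input median by the authors.

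Estimated counts were rounded and tested in R 4.3.3 with the edgeR 4.0.16 quasi-likelihood test, without pairing, after the study's methods, with median-of-ratios (RLE) scaling. Genes were kept where all libraries of a fraction exceeded 20 scaled reads, which removed 44. The Benjamini-Hochberg method was applied across all 15344 remaining genes, with 0.05 as the threshold. Standard errors came from the F statistic. P-values of the unpaired fit rest on the spread between the 3 libraries of each fraction, 1 per animal. Among the fits, only the one with the animal as a block uses the pairing. Fractions of an animal pair by design, and residuals of same-numbered libraries correlated at 0.19, 0.058 and 0.12, against -0.14 to 0.032 for others. Ratios used a pseudocount of 1. Reference files were GRCm38.p6 and GENCODE vM21, the same build as mm10. In 5 simulations with 200 changed genes and a mean of 14999 tested, 76.3% were called, 100% of these with the right sign. Of the calls 6.39% were false, and at a log2 change of 0.4 30.1% were called. The simulations changed a far smaller share of genes than the 46.0% called in the data, so these rates need not hold there.

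The members, lists and tests were chosen with earlier results of these data known. All 31 members were named. Of each related list, the 4 genes of highest mean and up to 3 called genes with the largest change at a mean of at least 100 scaled reads were named. Further names were picked with their values in view. A few genes of these lists are counted but not reported singly here. Alternatives were TMM and total count scaling, no filter, a filter at 100, DESeq2 1.42.0, the animal as a block, leaving out each library, a pseudocount of 0.1 and, chosen after seeing the data, limma 3.58.1 on the normalized values.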

Additional observations from a re-analysis of the deposited data

How the results depend on the processing

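Single genes followed through the alternatives were the 31 genes and most named genes of the related lists. Hacd1, Fads6 and the cell type markers were not followed. Of the genes followed, the 13 alternatives turned none past the threshold to the other side of 0. With the animal as a block, which uses the pairing of fractions, 15 of the 31 genes were called against 14. Srebf1 was the gene added, at -0.39, and the block changed no other call of a gene followed. Total count scaling gave a median log2 fold change of -0.27 for the 31 genes, -0.22 for other fatty acid synthesis and 0.0020 for other sterol synthesis. In those related lists 8 and 2 genes were lower, while 27.8% of all genes tested were lower. Under limma on the normalized values, 8 of the 31 genes, 0 of other sterol synthesis and 1 of sterol uptake and efflux were lower. Of all genes tested, 20.8% were lower under limma. Leaving out 1 library gave 6 to 10 lower and 1 to 2 higher among the 31 genes. In those fits 16.5% to 22.4% of all genes tested were lower. The related lists had 0 to 3 lower in other sterol synthesis and 1 to 5 lower in sterol uptake and efflux. Other fatty acid synthesis had a median of -0.23 to -0.11. DESeq2 called 14, without Cyp51 and with Srebf1. Among the genes followed, signs turned only in those that did not pass. Under total count scaling these were Srebf2 (-0.0556), Fdps (-0.0718), Fdft1 (-0.0662), Hsd17b7 (-0.0551), Stard4 (-0.0573) and Tecr (-0.00365), and under limma Fdps (-0.00742), Fdft1 (-0.00738) and Hsd17b7 (-0.00187). With 1 library left out, Srebf2 ranged from -0.0255 to 0.0587, Fdps from -0.0542 to 0.0571, Fdft1 from -0.0237 to 0.0593, Nsdhl from -0.227 to 0.0257, Hsd17b7 from -0.0910 to 0.129, Stard4 from -0.0330 to 0.0574, Tecr from -0.00423 to 0.203 and Mid1ip1 from -0.0775 to 0.0544. The cause was not tested. With 3 animals and small changes, a gene that did not pass is not shown to be equal between fractions, and genes of the table under 20 reads were not analysed here.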
